A study of Mus musculus with 8 samples.

Results

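The interleukin-1 (IL-1) family and its receptors were followed in mouse lung through 10 genes, taken by symbol from the 55416 gene identifiers counted in each mouse. They are the agonists Il1a, Il1b, Il36a, Il36g and Il33, the receptor antagonist Il1rn, the decoy receptor Il1r2, the signalling receptor Il1r1, the shared accessory chain Il1rap and the IL-33 receptor Il1rl1. All 10 were found, and all 10 passed the filter on low counts, which left 18560 tested genes in all. Il36a passed only through the LPS group, where alone it was detected, so it had to differ. It is left out of the counts of called genes and the medians below and its test is not used, and list genes that passed only through 1 group are likewise kept out of the counts of called list genes.

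RNA-seq was done on lungs of female C57BL/6 mice (C57BL/6J in the methods), 6 to 8 weeks old, 24 h after injection. Control mice (numbers 1, 2 and 4) received DMSO by the tail vein and then saline into the peritoneum, and LPS mice (numbers 1, 6 and 7) received lipopolysaccharide at 35 mg/kg. The methods do not say whether the LPS mice also received DMSO, so the solvent and LPS cannot be told apart in the comparison with control. Dual-treated mice (numbers 2 and 5) received YW3-56 at 10 mg/kg in DMSO shortly before the same dose of LPS, so for the same reason DMSO and YW3-56 cannot be told apart in the comparison with LPS alone. YW3-56 inhibits the protein arginine deiminases, enzymes that convert arginine in proteins to citrulline, and LPS is a bacterial membrane component sensed by Toll-like receptor 4. Total counts per library ran from 19061949 to 20908608, and the TMM scaling factors from 0.81 to 0.93 in LPS mice and from 1.06 to 1.11 in the other mice. LPS mice 6 and 7 stood apart from the other mice by high levels of squamous epithelium and skeletal muscle genes, and some values are also given without them.

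IL-1α and IL-1β bind the receptor encoded by Il1r1, which then recruits the accessory chain encoded by Il1rap and signals through Myd88 to NF-kappa B. The antagonist occupies the same receptor without signalling, and the decoy receptor binds the agonists but lacks a signalling domain. IL-33 is held in cell nuclei, in the mouse lung largely in alveolar type II cells, and acts through ST2, the product of Il1rl1, whereas the IL-36 cytokines act through the receptor encoded by Il1rl2. All of these values are RNA levels in whole lung, in which fewer cells of a type and less RNA per cell cannot be told apart. Counts per gene do not separate transcript forms, such as soluble and membrane-bound ST2 or the secreted and intracellular antagonist.

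A gene was called when its fold change was over 2 and its adjusted p was under 0.05 in the quasi-likelihood test of edgeR, adjusted by the Benjamini-Hochberg method over the 18560 tested genes. After LPS alone, 7 of the 9 genes other than Il36a rose against control, Il33 fell and Il1rap was not called. The same criterion called 39.2% of all tested genes in that comparison, 17.9% as higher and 21.3% as lower. The median log2 fold change was 2.23 over the 9 genes, against -0.01 over all tested genes. In the dual-treated mice 4 of the 9 genes were higher than in control (Il1b, Il1rn, Il1r2 and Il36g) and none was lower, against 7.15% of all tested genes called, 5.25% as higher and 1.9% as lower. The median over the 9 genes was 0.61, against 0.00 over all tested genes, and without dual-treated mouse 2 the calls over all genes went from 1327 to 752. The median of 0.61 was the value of Il1a, which was -0.23 without dual-treated mouse 2 and 1.10 without dual-treated mouse 5. Set against LPS alone, 6 of the 9 genes were lower in the dual-treated mice and none was higher, where 33.8% of all tested genes were called, 14% as lower and 19.8% as higher. The median over the 9 genes in this comparison was -1.16, against 0.06 over all tested genes. Without dual-treated mouse 5, the log2FC in this comparison lay nearer LPS alone for Il1a (-1.11), Il1rn (-2.62), Il1r2 (-1.28) and Il33 (0.51). The value of Il1r1 also lay nearer and was narrowly short of the fold criterion. Values farther below LPS alone were those of Il1b (-1.63), Il36g (-1.48), Il1rap (-0.68) and Il1rl1 (-0.99). The 3 comparisons share mice, so they are given side by side and are not independent. The members and the gene lists below were chosen with earlier results of these data known. Their counts beside the shares of all tested genes are therefore a description and not a test.

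**Figure D1:**
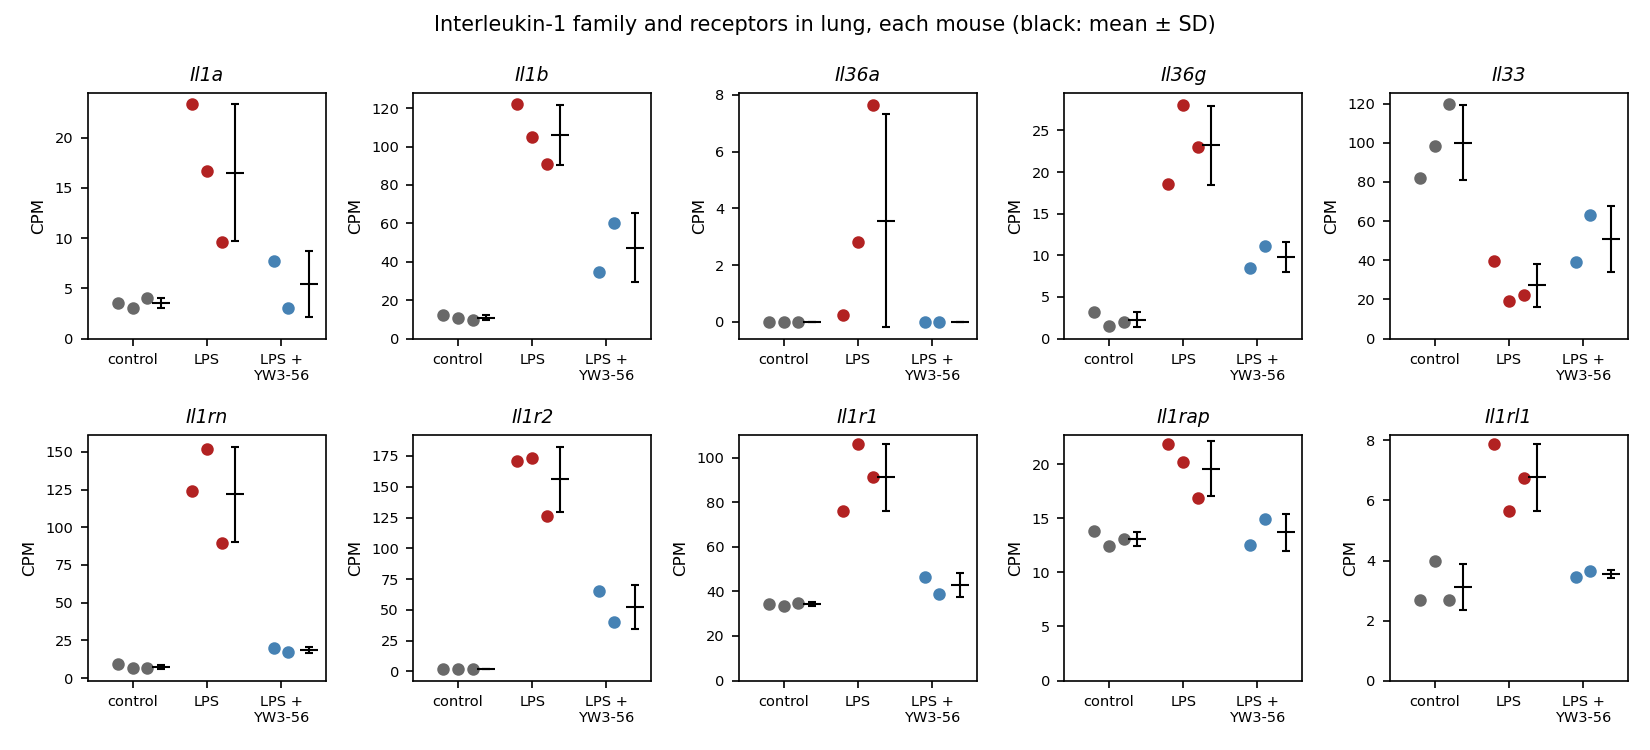
CPM (counts scaled to the TMM-normalized library size) of the 10 genes in each mouse on the vertical axes, by group on the horizontal axes. Points are mice, and the black bars give the mean and SD of each group (3 control, 3 LPS and 2 dual-treated mice). Il1r2 lies between 126 and 173 CPM in the LPS mice and at or under 1.69 CPM in control, whereas Il33 is highest in control.

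Among the agonists, Il1b, the secreted agonist made as an inactive precursor, was at 12.2, 10.7 and 9.79 CPM (counts scaled to the TMM-normalized library size) in the control mice, 122, 105 and 90.8 CPM in the LPS mice and 34.7 and 60 CPM in the dual-treated mice. The groups did not overlap, with the dual-treated mice between the others. The mean went from 10.9 ± 1.21 CPM (SD, n = 3) in control to 106 ± 15.7 CPM (SD, n = 3) after LPS and 47.4 ± 17.9 CPM (SD, n = 2) after dual treatment. Il1b rose with LPS (log2FC 3.28, SE 0.213, edgeR adjusted p = 1.98e-06) and was also above control after dual treatment (log2FC 2.12, SE 0.22, edgeR adjusted p = 0.000351). Against LPS alone its log2FC was -1.16 (SE 0.221, edgeR adjusted p = 0.00163). Without dual-treated mouse 2 this last value was -0.84, short of the fold criterion, and with scaling by library size alone it was -0.83.

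Il1a, the agonist that is active as a precursor and is often released from dying cells, was at 3.57, 3 and 4 CPM in control, 23.3, 16.7 and 9.6 CPM after LPS and 7.71 and 3.07 CPM after dual treatment. All LPS mice exceeded all others, while dual-treated mouse 5 lay within the control range and dual-treated mouse 2 above it. Il1a rose with LPS (log2FC 2.23, SE 0.391, edgeR adjusted p = 0.000746). In dual-treated mice it was not called against control (log2FC 0.61, SE 0.428, edgeR adjusted p = 0.376), and without mouse 2 the value turned to -0.23. It was lower than with LPS alone (log2FC -1.61, SE 0.437, edgeR adjusted p = 0.0105). That value was -2.44 without dual-treated mouse 2, and without dual-treated mouse 5 it was -1.11 with edgeR adjusted p = 0.0618, no longer called.

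Il36g, an IL-36 agonist of epithelia, was at 3.23, 1.55 and 2.02 CPM in control, 18.6, 28.1 and 23 CPM after LPS and 8.49 and 11.1 CPM after dual treatment. Its groups did not overlap and the dual-treated mice were again intermediate. Il36g rose with LPS (log2FC 3.36, SE 0.282, edgeR adjusted p = 7.42e-06) and was above control after dual treatment (log2FC 2.11, SE 0.296, edgeR adjusted p = 0.00175). It was lower after dual treatment than after LPS alone (log2FC -1.25, SE 0.288, edgeR adjusted p = 0.00466), but was not called with scaling by library size alone, at -0.93.

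Il36a, another IL-36 agonist, had 0 counts in every control and dual-treated mouse, and 4, 49 and 137 counts in LPS mice 1, 6 and 7, or 0.237, 2.83 and 7.65 CPM. Nearly all of its signal lay in LPS mice 6 and 7. Against a floor of 3 counts per library, its mean CPM after LPS was at least 25.2-fold higher than in control, and after dual treatment it was at least 26.7-fold lower than after LPS. Without LPS mouse 7 these bounds were 10.8-fold and 11.5-fold, and without LPS mice 6 and 7 they were 1.67-fold and 1.77-fold. No fold is given between control and dual treatment, both at 0 counts. Without LPS mouse 6, or without LPS mouse 7, Il36a did not pass the filter on low counts.

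LPS mice 6 and 7 stood apart in other genes too. The summed CPM of the squamous epithelium markers was 13.5, 21.4 and 20.1 in control, 2.91, 758 and 2090 in LPS mice 1, 6 and 7, and 13.3 and 28.2 in dual-treated mice. The keratin Krt13 had the highest mean CPM over the 8 mice, at 286 and 887 CPM in LPS mice 6 and 7, beside Krt4 at 293 and 819 CPM, and both were under 1 CPM in the 6 other mice, where Krt14 or Calml3 was highest. Of the 12 squamous symbols 11 were matched and 10 tested. Of these, 5 passed the filter only through the LPS group, and 3 of the 5 others were called higher after LPS, where 17.9% of all tested genes were. Without LPS mice 6 and 7 none of those 5 was called higher and 3 lower. Sprr1b, Sprr3 and Dsg3 had 0 counts in all control mice and in LPS mouse 1, whereas no matched marker was at 0 in LPS mice 6 and 7. The skeletal muscle markers summed to 9.49, 19.1 and 13.8 CPM in control, 16.8, 490 and 1270 CPM in LPS mice 1, 6 and 7, and 5.31 and 7.11 CPM in dual-treated mice. Acta1 had the highest mean over the 8 mice. Of those 8 markers 4 passed the filter only through the LPS group and the 4 others were called higher after LPS, none of these 4 was called without LPS mice 6 and 7, and Acta1 was at 0 counts in control mouse 1. The part of these tissues in the Il36a values was not tested. Il36g was measured at 18.6 CPM in LPS mouse 1, whose squamous sum was the lowest of the 8 mice. Without LPS mice 6 and 7, the median log2FC over the 9 tested members was 2.72 in LPS against control and -1.16 in dual treatment against LPS. In the latter Il36g stood at -0.93 and Il1r1 at -0.84, both short of the fold criterion.

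**Figure D2:**
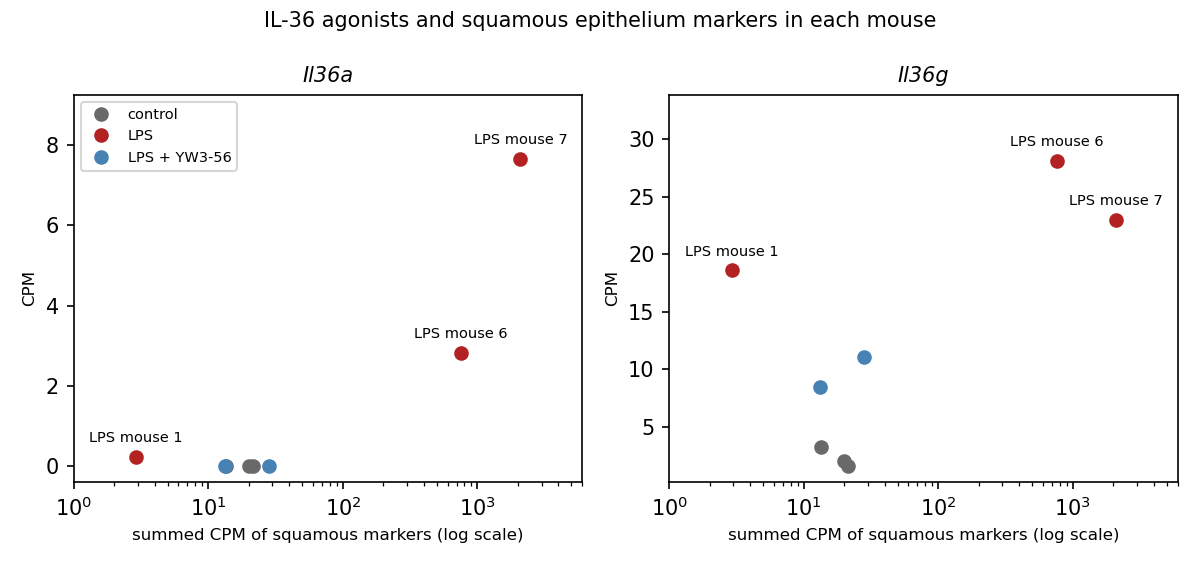
CPM of Il36a (left) and Il36g (right) on the vertical axes against the summed CPM of 11 squamous epithelium markers on a log horizontal axis, with 1 point per mouse. Il36a is high only where the squamous sum is high, in LPS mice 6 and 7, whereas Il36g is at 18.6 CPM in LPS mouse 1, where that sum is 2.91 CPM.

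The antagonist Il1rn was at 9.2, 6.38 and 6.48 CPM in control, 124, 152 and 89.5 CPM after LPS and 20.2 and 17.5 CPM after dual treatment. Every LPS mouse was far above the other mice, and the dual-treated mice lay between LPS and control. Il1rn rose with LPS (log2FC 4.05, SE 0.226, edgeR adjusted p = 1.01e-06). It was above control after dual treatment (log2FC 1.36, SE 0.233, edgeR adjusted p = 0.00473) and below LPS alone (log2FC -2.69, SE 0.244, edgeR adjusted p = 2.37e-05). Among the 9 members other than Il36a this was the fitted value farthest below LPS alone.

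Il1r2, the decoy receptor, known from neutrophils and other myeloid cells, was at 1.66, 1.69 and 1.66 CPM in control, 171, 173 and 126 CPM after LPS and 65.3 and 39.8 CPM after dual treatment. The control mice were nearly alike, and no groups overlapped. Il1r2 rose with LPS 93.3-fold (log2FC 6.54, SE 0.247, edgeR adjusted p = 2.68e-07). After dual treatment it was 31.4-fold above control (log2FC 4.97, SE 0.247, edgeR adjusted p = 9.39e-06) and lower than after LPS alone (log2FC -1.57, SE 0.211, edgeR adjusted p = 0.000208). The summed neutrophil markers moved as well, at 333, 266 and 189 CPM in control, 2740, 3580 and 2460 CPM after LPS and 2010 and 2500 CPM after dual treatment. These 10 markers were all tested, S100a9 was highest in every mouse but control mice 1 and 2, where Ltf was, none was at 0 in any mouse, and 9 were called higher after LPS. In dual treatment against LPS 4 were higher and 3 lower, and without LPS mice 6 and 7 1 was higher and 2 lower. Over all tested genes 17.9% were called higher after LPS, and 19.8% higher and 14% lower in dual treatment against LPS. The part of the neutrophil markers in the Il1r2 values was not tested.

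Il1r1, the signalling receptor, was at 34.5, 33.6 and 35 CPM in control, 76.1, 106 and 91.2 CPM after LPS and 46.6 and 39 CPM after dual treatment. LPS mice were above all others and the dual-treated mice slightly above control. Il1r1 rose with LPS (log2FC 1.41, SE 0.13, edgeR adjusted p = 1.27e-05). In dual-treated mice its log2FC against control was 0.32 (SE 0.143, edgeR adjusted p = 0.171), not called. This value was 0.15 without dual-treated mouse 2 and 0.41 without dual-treated mouse 5. Against LPS alone Il1r1 was lower (log2FC -1.09, SE 0.147, edgeR adjusted p = 0.000213), close to the fold criterion. It missed that criterion without LPS mouse 6 (-0.97), with scaling by library size alone (-0.77) and, narrowly, without dual-treated mouse 5.

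Il1rap, the accessory chain shared by the IL-1, IL-33 and IL-36 receptors, was at 13.8, 12.4 and 13.1 CPM in control, 21.9, 20.2 and 16.9 CPM after LPS and 12.5 and 14.9 CPM after dual treatment. The LPS mice were above all others, and control and dual-treated mice overlapped. Its log2FC was 0.58 for LPS against control (SE 0.141, edgeR adjusted p = 0.00488), 0.06 for dual treatment against control (SE 0.157, edgeR adjusted p = 0.837) and -0.52 for dual treatment against LPS (SE 0.159, edgeR adjusted p = 0.0183). No comparison reached a fold change of 2, and the value of dual treatment against control turned to -0.10 without dual-treated mouse 5.

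In the IL-33 arm the ligand and the receptor went opposite ways with LPS. Il33 was at 82, 98.5 and 120 CPM in control, 39.5, 19.3 and 22.4 CPM after LPS and 39.1 and 62.9 CPM after dual treatment. Control mice were above all others, and dual-treated mouse 2 lay within the LPS range. Il33 fell with LPS (log2FC -1.89, SE 0.282, edgeR adjusted p = 0.000261), and without LPS mice 6 and 7 the value was -1.34 and still called. In dual-treated mice it was not called, with log2FC -0.98 against control (SE 0.31, edgeR adjusted p = 0.0618) and 0.92 against LPS (SE 0.304, edgeR adjusted p = 0.0265). Both values moved with single mice. Against control the value was -1.39 without dual-treated mouse 5, which was called, and -0.70 without dual-treated mouse 2 (edgeR adjusted p = 0.299). Against LPS it was called without LPS mouse 1 (1.28), without dual-treated mouse 2 (1.20), with scaling by library size alone (1.26) and, narrowly, with upper-quartile scaling. It was 0.36 without LPS mice 6 and 7 (edgeR adjusted p = 0.356), 0.51 without dual-treated mouse 5 (edgeR adjusted p = 0.232), 0.72 without LPS mouse 6 (edgeR adjusted p = 0.0779) and 0.79 without LPS mouse 7 (edgeR adjusted p = 0.0747). Alveolar type II markers summed to 37000, 30900 and 38800 CPM in control, 25900, 18100 and 14500 CPM after LPS and 18700 and 29800 CPM after dual treatment. All 6 were tested, Sftpc was the most abundant in every mouse and none was at 0. Of the 6, 1 was called lower after LPS, Slc34a2 (log2FC -2.26), and it was also called higher in dual treatment against LPS (log2FC 1.96). Over all tested genes 21.3% were lower and 19.8% higher in these 2 comparisons. The part of the alveolar type II markers in the Il33 values was not tested.

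Il1rl1, which encodes the IL-33 receptor ST2, was at 2.69, 3.99 and 2.67 CPM in control, 7.89, 5.66 and 6.75 CPM after LPS and 3.45 and 3.64 CPM after dual treatment. The LPS mice were above all others, and both dual-treated mice lay within the control range. Il1rl1 rose with LPS (log2FC 1.12, SE 0.235, edgeR adjusted p = 0.0022), but was not called with scaling by library size alone (0.82). The log2FC of dual treatment was 0.19 against control (SE 0.263, edgeR adjusted p = 0.686) and -0.93 against LPS (SE 0.265, edgeR adjusted p = 0.0133), neither called. The latter was called without LPS mouse 6 (-1.05) and without LPS mice 6 and 7 (-1.16). It was -0.60 with scaling by library size alone (edgeR adjusted p = 0.0744), -0.81 without LPS mouse 1 and -0.91 without dual-treated mouse 2 (edgeR adjusted p = 0.0509). The mast cell markers, of cells that carry ST2, summed to 190, 191 and 215 CPM in control, 65, 64.3 and 60.6 CPM after LPS and 75.1 and 114 CPM after dual treatment. Nearly all of that sum was Kit, and the next highest in control was Cpa3, at a mean of 2.13 CPM. The sum therefore follows 1 gene and is not read as an amount of mast cells. Of the 6 markers 5 were tested, 1 of them through the LPS group alone, 2 of the 4 others were called lower after LPS (1 of the same 4 without LPS mice 6 and 7), and Ms4a2 was at 0 counts in control mice 1 and 2. Over all tested genes 21.3% were called lower after LPS. The part of the mast cell markers in the Il1rl1 values was not tested.

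**Figure D3:**
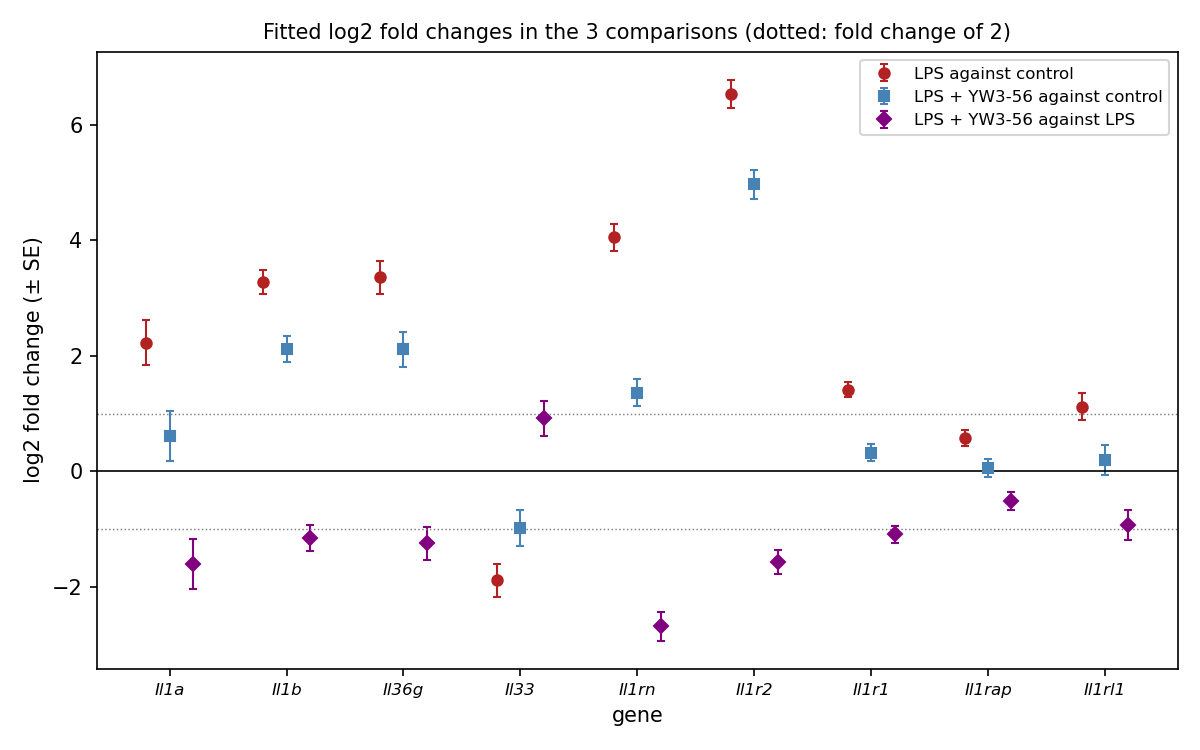
Fitted log2 fold change on the vertical axis for 9 of the 10 genes in the 3 comparisons. Bars are standard errors worked back from the test statistic. Il36a is left out because control and dual-treated mice had 0 counts. Dotted lines mark a fold change of 2. Il1rn is farthest below LPS alone (-2.69), and Il33 is the gene with a negative value for LPS against control (-1.89).

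Levels of different genes were compared per length, as CPM per kb of exon. In control lungs Il33 had the highest mean at 16.2, ahead of Il1r1 at 5.04, Il1b at 4.18, Il1rn at 1.33, Il36g at 1.19, Il1a at 1.01, Il1rap at 0.858, Il1r2 at 0.662 and Il1rl1 at 0.452 CPM per kb. Neighbours overlapped between mice for Il1rn and Il36g, Il36g and Il1a, and Il1a and Il1rap. After LPS the order began with Il1r2 at 62, Il1b at 40.7, Il1rn at 22, Il1r1 at 13.4 and Il36g at 12.2 CPM per kb, and Il33 had moved down to 4.38, beside Il1a at 4.74. The lowest means there were 3.19 for Il36a, 1.28 for Il1rap and 0.982 CPM per kb for Il1rl1. Il1r1 overlapped with Il36g, and all neighbours from Il1a down overlapped. In dual-treated lungs Il1r2 at 20.8 and Il1b at 18.2 CPM per kb still led, with overlap, and Il33 came next at 8.25. Il1r1 followed at 6.28, Il36g at 5.13, Il1rn at 3.41, Il1a at 1.55, Il1rap at 0.895 and Il1rl1 at 0.514 CPM per kb. There Il33 overlapped with Il1r1, Il1r1 with Il36g, and Il1a with Il1rap.

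Ratios within a library do not depend on the scaling between libraries, and set antagonist against agonist, decoy against signalling receptor, and receptor against ligand. They were tested by a two-sided exact permutation test over mice, which cannot go below p = 0.1 here, with adjustment over the 15 ratios and pairs of groups. The ratio of Il1rn to Il1b was 0.355, 0.282 and 0.311 in control, 0.478, 0.685 and 0.463 after LPS and 0.274 and 0.137 after dual treatment. No groups overlapped, and the dual-treated mice were below control. Its geometric mean was 0.315 in control, 0.533 after LPS and 0.194 after dual treatment, and the log2 difference of dual treatment from LPS was -1.46 (exact permutation p = 0.1, adjusted p = 0.125). The other 2 differences of this ratio, 0.76 for LPS and -0.70 for dual treatment against control, had the same exact p. The value for dual treatment against control was -0.20 without dual-treated mouse 5 and -1.20 without dual-treated mouse 2, whose ratio lay just below the lowest control mouse.

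The ratio of Il1r2 to Il1r1 was 0.132, 0.138 and 0.129 in control, 6.06, 4.38 and 3.72 after LPS and 3.79 and 2.76 after dual treatment. The decoy therefore had fewer counts per kb than the signalling receptor in every control mouse and more in every other mouse. LPS and dual-treated mice overlapped, with a log2 difference of -0.52 (exact permutation p = 0.3, adjusted p = 0.321). That difference was -0.29 without dual-treated mouse 5, -0.32 without LPS mouse 1 and -0.75 without dual-treated mouse 2. Against control the log2 difference was 5.12 after LPS and 4.60 after dual treatment (exact permutation p = 0.1 for both).

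The ratio of Il1rl1 to Il33 was 0.0297, 0.0365 and 0.0201 in control, 0.18, 0.263 and 0.271 after LPS and 0.0796 and 0.0522 after dual treatment. No groups overlapped, the dual-treated mice lay between the others, and Il33 exceeded its receptor per kb in all 8 mice. The log2 difference was 3.07 for LPS against control, 1.21 for dual treatment against control and -1.86 for dual treatment against LPS (exact permutation p = 0.1 for each).

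For the antagonist against Il1a the ratio was 1.61, 1.33 and 1.02 in control, 3.36, 5.74 and 5.85 after LPS and 1.65 and 3.56 after dual treatment. Dual-treated and LPS mice overlapped, with geometric means of 2.42 and 4.83 (exact permutation p = 0.3). The ratio of Il1b to Il1a was 4.55, 4.73 and 3.27 in control, 7.03, 8.38 and 12.6 after LPS, and 6.02 and 26 after dual treatment. Il1b exceeded Il1a per kb in all 8 mice, and the dual-treated mice lay on either side of the LPS range (log2 difference 0.46, exact permutation p = 0.7). That difference was 1.52 without dual-treated mouse 2 and -0.59 without dual-treated mouse 5, so a single mouse set its sign.

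**Figure D4:**
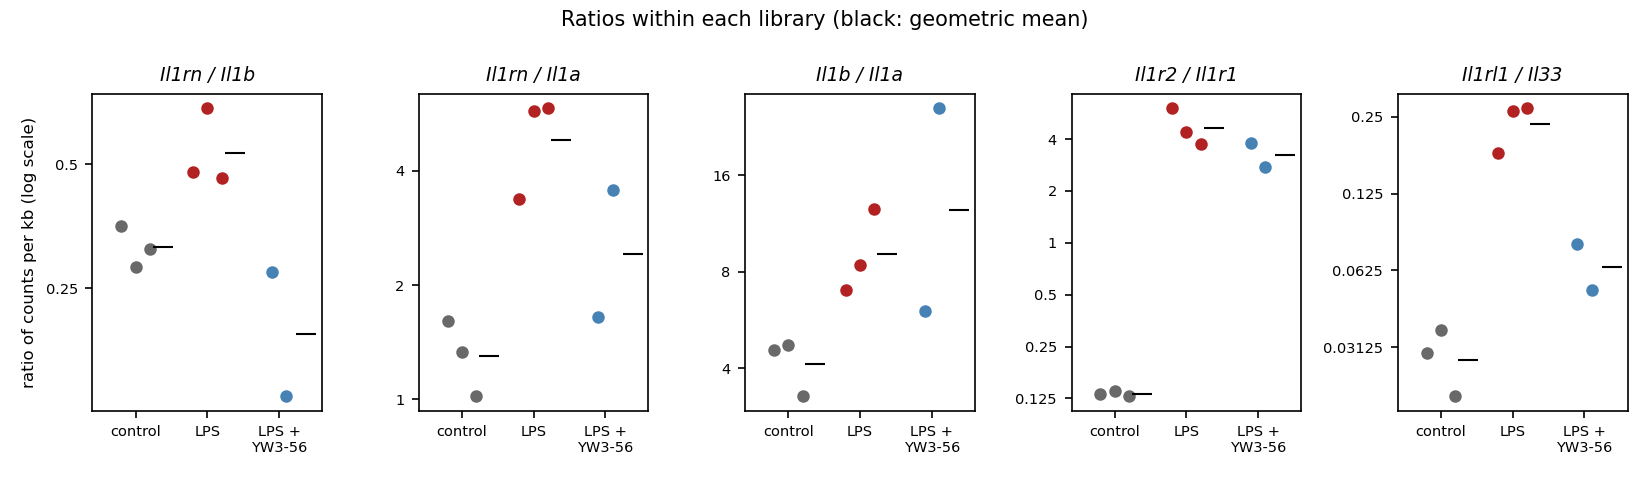
Ratios of counts per kb of exon within each library on log vertical axes, by group. Points are mice and black bars the geometric means. The decoy to signalling receptor ratio is under 1 in the 3 control mice and over 1 in the 5 others, and the antagonist to Il1b ratio is lowest in the dual-treated mice, at 0.274 and 0.137.

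The remaining genes of the family were read from a list of 11 relatives, of which 6 passed the filter on low counts. With LPS 3 rose and 1 fell, with a median log2FC of 0.75, where 39.2% of all tested genes were called, 17.9% as higher. Il18rap, a chain of the IL-18 receptor, was at 6.61, 4.55 and 4.74 CPM in control, 90, 98.2 and 82.2 CPM after LPS and 16.1 and 18.5 CPM after dual treatment, with no overlap. Its log2FC was 4.09 for LPS against control (edgeR adjusted p = 3.2e-07) and -2.38 for dual treatment against LPS (edgeR adjusted p = 8.14e-06). Il18bp, which encodes a secreted protein that neutralizes IL-18, rose with LPS (log2FC 2.78, edgeR adjusted p = 3.94e-06) and was lower after dual treatment than after LPS (log2FC -1.56, edgeR adjusted p = 0.00032). Both were also called higher in dual-treated mice than in control, at 1.71 and 1.22. Sigirr, an inhibitory receptor of the family, was at 33.2, 33.4 and 38.1 CPM in control, 9.26, 13 and 10.7 CPM after LPS and 29.7 and 38.2 CPM after dual treatment. Only the LPS mice were low, with log2FC -1.67 for LPS against control (edgeR adjusted p = 1.29e-05) and 1.63 for dual treatment against LPS (edgeR adjusted p = 4.58e-05). Il1rl2, the IL-36 receptor, rose with LPS (log2FC 1.08, edgeR adjusted p = 0.000646) and was not called for dual treatment against LPS (log2FC -0.47, edgeR adjusted p = 0.0763). Its control mean was 11.6 CPM. LPS mouse 1, at 20.3 CPM, was within a fold change of 2 of that mean, and LPS mice 6 and 7 were higher, at 25.5 and 27.9 CPM. Il18r1, another chain of the IL-18 receptor, was at 114, 122 and 127 CPM in control and was not called in any comparison. Il36b had counts only in LPS mice 6 and 7 (2 and 35 counts), the antagonist Il36rn only in LPS mouse 7 (11 counts), and Il1f10 had none.

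Of the 21 genes of the chain from receptor to NF-kappa B, 6 rose with LPS and 1 fell, with a median log2FC of 0.55. These 7 of 21 are no larger a share than the 39.2% of all tested genes called, so the count is not read as a result about the chain. Traf6, a ubiquitin ligase of the chain, was at 32, 36 and 35.6 CPM in control, 172, 139 and 147 CPM after LPS and 41.3 and 34.3 CPM after dual treatment. Irak3, a kinase-like protein that restrains the chain, was at 10.1, 10 and 8 CPM in control, 65.7, 77.2 and 67.3 CPM after LPS and 48 and 30.3 CPM after dual treatment. Traf6 was back near control after dual treatment, whereas Irak3 was not. The log2FC of Traf6 was 2.15 with LPS (edgeR adjusted p = 9.51e-07) and -2.02 for dual treatment against LPS (edgeR adjusted p = 6.71e-06). Irak3 rose with LPS by 2.90 (edgeR adjusted p = 1.77e-06) and, alone in this list, was called against control after dual treatment (log2FC 2.06, edgeR adjusted p = 0.000201). The adaptor Myd88 (2.03), the kinase Irak2 (1.74), the ubiquitin ligase Peli1 (1.06) and the NF-kappa B subunit Rela (1.04) also rose with LPS on the log2 scale, and Peli3 fell (-1.79). Against LPS alone 5 of the 21 were lower in dual-treated mice and 1, Peli3, was higher, with a median of -0.57, where 33.8% of all tested genes were called.

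A list of 4 feedback genes of NF-kappa B held Nfkbia, Nfkbiz, Tnfaip3 and Zc3h12a, which need not all restrain the response. All 4 rose with LPS and all 4 were lower after dual treatment than after LPS, with medians of 3.59 and -2.59. Over all tested genes 17.9% rose with LPS and 14% were lower in the second comparison. Tnfaip3, which encodes the deubiquitinase A20, was at 25.2, 26.1 and 29 CPM in control, 1020, 661 and 623 CPM after LPS and 152 and 73.6 CPM after dual treatment. No groups overlapped. Its log2FC was 4.84 with LPS (edgeR adjusted p = 1.88e-06), 2.08 after dual treatment against control (edgeR adjusted p = 0.00187) and -2.77 for dual treatment against LPS (edgeR adjusted p = 0.000102). Nfkbia, an inhibitor of NF-kappa B, rose by 3.13 with LPS (edgeR adjusted p = 1.6e-06), and Zc3h12a, a nuclease that degrades cytokine mRNA, had the value farthest below LPS alone, at -2.86 (edgeR adjusted p = 5.29e-06). Against control, 3 of the 4 were called higher in dual-treated mice, where 5.25% of all tested genes were.

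Of 13 genes for maturation and release of IL-1 cytokines, Elane passed the filter only through the LPS group. Of the 12 others 7 rose with LPS and none fell (median 1.39), where 17.9% of all tested genes rose, and 6 were higher than control after dual treatment (median 1.05), where 5.25% of all tested genes were. Casp4, an inflammatory caspase that senses LPS inside cells, was at 12.1, 11.7 and 11.1 CPM in control, 119, 100 and 103 CPM after LPS and 41 and 28.3 CPM after dual treatment. Pycard, the inflammasome adaptor ASC, was at 3.28, 3.43 and 4.87 CPM in control, 7.89, 11.7 and 9.32 CPM after LPS and 28.3 and 19.8 CPM after dual treatment. Casp4 was thus intermediate in dual-treated mice, and Pycard was highest there, at a log2FC of 2.64 against control (edgeR adjusted p = 0.000214). The log2FC of dual treatment against LPS was -1.63 for Casp4 (edgeR adjusted p = 3.63e-05) and 1.32 for Pycard (edgeR adjusted p = 0.00127). Casp1, which encodes the enzyme that cleaves the IL-1β precursor, rose with LPS by 1.66 (edgeR adjusted p = 3.19e-05) and was not called for dual treatment against LPS (log2FC -0.51). The inflammasome sensor Nlrp3 rose with LPS by 2.07 (edgeR adjusted p = 8.85e-05) and was lower after dual treatment (log2FC -1.01, edgeR adjusted p = 0.0128). Elane, neutrophil elastase, one of the proteases that can cleave IL-1 family precursors, was at 6.64, 6.99 and 4.69 CPM after LPS and at or under 0.783 CPM in all other mice. In all, 4 of the 12 were lower and 2, Pycard and Nlrc4, higher after dual treatment than after LPS, where 33.8% of all tested genes were called. The calpain Capn2 was not called in any comparison, and Ctss, which encodes cathepsin S, was called against control after dual treatment (log2FC 1.34, edgeR adjusted p = 0.00438).

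Of 12 genes known to be induced by IL-1, which LPS also induces by itself, Csf3 passed the filter only through the LPS group. Of the 11 others 10 rose with LPS, 6 were higher than control after dual treatment and 10 were lower after dual treatment than after LPS, with medians of 5.55, 1.42 and -2.22. Those calls were made for 17.9%, 5.25% and 14% of all tested genes. This list too was chosen with earlier results of these data known, so its counts are a description. Il6 was at 1.17, 1.27 and 0.644 CPM in control, 200, 33.4 and 85.7 CPM after LPS and 2.59 and 0.659 CPM after dual treatment. Saa3, an acute-phase protein, was at 7.34, 5.26 and 19.6 CPM in control, 6560, 9510 and 4360 CPM after LPS and 1760 and 1240 CPM after dual treatment. Il6 in dual-treated mouse 5 lay within the control range, whereas Saa3 in both dual-treated mice was far above control. The log2FC of dual treatment against control was 0.65 for Il6 (edgeR adjusted p = 0.706) and 7.13 for Saa3 (edgeR adjusted p = 0.000103). Lcn2, an iron-withholding protein, rose by 6.57 with LPS (edgeR adjusted p = 4.56e-06). Csf3, a granulocyte growth factor, was at 174, 140 and 104 CPM after LPS and at or under 0.0489 CPM in control. Il6 was the gene of this list farthest below LPS alone after dual treatment (log2FC -6.04, edgeR adjusted p = 0.000284).

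Of the 14 type 2 genes and markers of cells that carry ST2, 11 were tested and none was called higher in any comparison. Ptgdr2 passed the filter only through control and Mcpt4 only through the LPS group. Of the 9 others 3 fell with LPS (Gata3, Kit and Cpa3) and 3 were lower than control after dual treatment (Areg, Gata3 and Kit), with medians of -0.90 and -1.07. The 3 with LPS stand beside 39.2% of all tested genes called and 21.3% lower, so that count is not read as a result about the list. The 3 after dual treatment stand beside 1.9% of all tested genes lower. Rora with LPS (log2FC 0.52, edgeR adjusted p = 0.00129) and Kit in dual treatment against LPS (log2FC 0.61, edgeR adjusted p = 0.00856) were higher by less than the fold criterion. Gata3, a transcription factor of type 2 lymphocytes, was at 12.5, 10.9 and 10.9 CPM in control, 2.43, 2.25 and 2.57 CPM after LPS and 1.95 and 4.26 CPM after dual treatment. Control mice were above all others, with log2FC -2.24 for LPS (edgeR adjusted p = 7.56e-05) and -1.88 for dual treatment (edgeR adjusted p = 0.00383) against control. Il13 had at most 3 counts in any library, and Il5 at most 12. Areg, an epidermal growth factor receptor ligand, and Rora were lower after dual treatment than after LPS, at -1.62 and -1.08. Ptgdr2, a prostaglandin D2 receptor, had the lowest log2FC with LPS (-2.72), and the mast cell protease Mcpt4 the lowest after dual treatment, -3.23 against control and -3.13 against LPS, given without a test. Kit and 4 other genes of this list are also among the mast cell markers.

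Other marker lists were summed in the same way. Over all tested genes 17.9% were called higher and 21.3% lower after LPS, and 19.8% higher and 14% lower in dual treatment against LPS. Counts near these shares are not read as results about a list. Monocyte markers (6) were at 374, 307 and 437 CPM in control, 1440, 1020 and 925 CPM after LPS and 740 and 732 CPM after dual treatment, with 3 called higher and 1, Ccr2, lower after LPS (log2FC -3.19), and 2 higher and 1 lower in dual treatment against LPS. Cd14 was at 1040, 719 and 629 CPM in the LPS mice and led there, whereas Fn1 led in control and dual-treated mice, so the sum in LPS mice was mostly Cd14. Alveolar macrophage markers (6) were at 797, 707 and 726 CPM, then 825, 996 and 593 CPM, then 1640 and 1530 CPM, with 2 called lower after LPS and 3 higher in dual treatment against LPS. Chil3 led in every mouse but dual-treated mouse 2, where Fabp4 was at 741 CPM against 38.2 CPM in dual-treated mouse 5. Endothelial markers (6) were at 3350, 3510 and 3770 CPM, then 2080, 1670 and 1660 CPM, then 3340 and 3440 CPM, with 4 called lower after LPS and 4 higher in dual treatment against LPS. Egfl7 led in control, Cdh5 in LPS and Pecam1 in dual-treated mice. Alveolar type I markers (6, Ager highest in mean CPM) were at 5850, 5580 and 5750 CPM, then 4350, 3650 and 2640 CPM, then 3010 and 4070 CPM, with 3 called lower after LPS and 3 higher in dual treatment against LPS. Club and ciliated airway markers (6, mostly Scgb1a1) were at 31000, 39400 and 36600 CPM, then 67900, 57500 and 56200 CPM, then 24100 and 26600 CPM, so no groups overlapped. None was called with LPS, and 3 were called lower in dual treatment against LPS. Fibroblast markers (6, Pdgfra highest in mean CPM) were at 1020, 1090 and 999 CPM, then 833, 982 and 916 CPM, then 1360 and 897 CPM, with 1 called higher and 1 lower after LPS, and 2 higher and 1 lower in dual treatment against LPS. The lung label was thus met by abundant surfactant, alveolar and airway markers in every mouse.

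Genes whose log2 CPM across the 8 mice was most like a member's are given as a description over 15612 genes. For Il1b they were Ctsb (Pearson r = 0.995), Ptprj, Il10ra, Fmnl1 and Efhd2 (0.990). For Il33 they were Acoxl (0.997), Dlg4, Pitpnm2, Ifi203-ps and Elfn1 (0.991), and for Il1rl1 they were Foxc1 (0.990), Cenpl, Kat5, Zdbf2 and Abce1 (0.980).

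Most of these genes lie in clusters. In GRCm39 with the GENCODE M39 annotation, 6 receptor genes stand in a row on the plus strand within 478 kb of chromosome 1: Il1r2 (chr1:40113239-40164391), Il1r1 (chr1:40264174-40356417), Il1rl2 (chr1:40363708-40406734), Il1rl1 (chr1:40468730-40504575), Il18r1 (chr1:40504712-40540014) and Il18rap (chr1:40554522-40590865). Along that row the log2FC with LPS was 6.54, 1.41, 1.08, 1.12, 0.42 and 4.09, so the genes at the ends of the row had the highest values. Of the 6 genes 5 were called, where 39.2% of all tested genes were. Il1rl1 was not called with scaling by library size alone (0.82). The log2FC of dual treatment against LPS was -1.57, -1.09, -0.47, -0.93, -0.74 and -2.38 in the same order. On chromosome 2, Il36g (chr2:24072000-24083585), Il36a (chr2:24105430-24115714) and Il1rn (chr2:24226865-24241506) lie on the plus strand in a stretch of 198 kb that begins at Il36b (chr2:24043161-24050531), and Il1a (chr2:129140291-129152098) and Il1b (chr2:129206490-129213059) on the minus strand 54.4 kb apart. Il1rap (chr16:26400350-26548880) and Il33 (chr19:29902483-29938933) stand alone on the plus strand.

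The strand setting of the counting is not given in the sources used here, so reads from a gene and from an antisense partner cannot be told apart. Exons of the antisense Gm14023 cover 13.7% of the exon bases of Il1a and had 5 to 21 counts per library, against 64 to 392 for Il1a. Those of Gm20319 cover 9.32% of Il1rap, with at most 5 counts, and those of Il1bos 3.65% of Il1b, with at most 24 counts against at least 213 for Il1b. In control mice Il1a had 64 to 87 counts.

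Sequence before the gene start was read from RefSeq promoters (GRCm38.p6), of 250 bases before to 50 after the start. Of the 10 genes 8 matched, with 13 promoters among them, and Il36a and Il36g had no entry. Motifs were searched on both strands as GGGANNTTC (kappa B-like), TGANTCA (AP-1-like, which reads the same on both strands) and TTGCNNAA (C/EBP-like). They occurred in 3.94%, 7.81% and 10.8% of all 32851 promoters, and in 0, 2 and 3 of the 13. A match is a description and not a site of binding. The AP-1-like letters stood in Il1a, 12 bases before the start, and in 1 promoter of Il1rn, 141 bases before it. Both genes rose with LPS and were lower after dual treatment. Il1b, Il1r1 and Il1r2 were likewise called in both comparisons, but their promoters held no AP-1-like letters. The 250 bases before the start of Il1a and of this Il1rn promoter are shown, with the match in capitals. They lie at chr2:129309973-129310222 on the minus strand (Il1a) and chr2:24336610-24336859 on the plus strand (Il1rn).
Il1a: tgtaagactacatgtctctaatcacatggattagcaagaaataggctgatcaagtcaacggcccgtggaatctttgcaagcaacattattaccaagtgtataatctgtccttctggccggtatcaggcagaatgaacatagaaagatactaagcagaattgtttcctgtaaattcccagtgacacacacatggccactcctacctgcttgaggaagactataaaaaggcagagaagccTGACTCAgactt
Il1rn: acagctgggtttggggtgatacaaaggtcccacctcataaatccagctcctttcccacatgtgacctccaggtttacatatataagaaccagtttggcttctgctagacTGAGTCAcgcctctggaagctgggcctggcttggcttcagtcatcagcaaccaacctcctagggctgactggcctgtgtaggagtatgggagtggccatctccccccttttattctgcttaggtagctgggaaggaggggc

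The C/EBP-like letters stood in 1 promoter each of Il1r1 (133 bases before the start), Il1rl1 (34 bases) and Il33 (85 bases). In Il33 and Il1rl1, the ligand and receptor whose RNA went opposite ways with LPS, the matched letters were the same TTGCATAA. Those stretches lie on the plus strand at chr19:29945540-29945789 (Il33) and chr1:40429320-40429569 (Il1rl1) of GRCm38.p6, again with the match in capitals.
Il33: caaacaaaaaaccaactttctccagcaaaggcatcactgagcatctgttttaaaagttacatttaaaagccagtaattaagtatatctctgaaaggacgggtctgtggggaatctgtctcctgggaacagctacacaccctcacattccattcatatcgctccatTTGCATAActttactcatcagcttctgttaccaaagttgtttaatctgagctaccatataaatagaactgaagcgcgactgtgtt
Il1rl1: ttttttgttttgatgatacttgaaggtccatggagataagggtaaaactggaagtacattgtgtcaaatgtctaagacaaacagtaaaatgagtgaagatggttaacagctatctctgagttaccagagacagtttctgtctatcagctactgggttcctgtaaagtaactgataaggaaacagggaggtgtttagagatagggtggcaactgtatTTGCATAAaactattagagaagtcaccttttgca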

How the data were processed

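Lung RNA-seq of 8 mice was used: 3 control, 3 LPS and 2 LPS plus YW3-56. The methods describe 3 mice per group for RNA-seq, but only 2 dual-treated libraries were available. Per the labels and methods, the authors filtered reads with FastQC 0.11.9 and Trim Galore, aligned them to GRCm39 with HISAT2 2.2.1 and counted them per gene with featureCounts 2.0.1, and deposited raw counts without normalization. The annotation release is not given in the sources used here. Of 55416 identifiers 54749 matched GENCODE M39, with 667 unmatched (0.0533% of counts). The main test was that of edgeR 4.0.16 under R 4.3.3 (TMM scaling, filterByExpr by group, quasi-likelihood test on all 8 libraries, 5 residual degrees of freedom), and DESeq2 1.42.0 was an alternative. The criterion was a fold change over 2 and an adjusted p under 0.05. Each SE of a log2FC was worked back as the absolute log2FC divided by the square root of the F statistic. The methods of the study used DESeq2 and do not say whether p was adjusted. CPM values are TMM-normalized, and likeness used log2 CPM with a prior count of 2 among genes with a mean of at least 1 CPM. Ratios used counts per kb with 0.5 added, and exon lengths of GENCODE M39. Other scalings, filters, thresholds and libraries left out were tried. Named genes are the 10 members and, from each list, called genes, the gene with the highest mean CPM and the genes with the highest absolute log2FC, and also some untested genes and genes that lead a marker list in single mice. The procedure was tested on simulated counts, where 97.5% to 100% of 200 genes changed by 2 on the log2 scale were recovered. With so few changed genes that test cannot check the scaling of the LPS comparison, where 39.2% of tested genes were called. The members and lists were chosen with earlier results of these data known.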

Additional observations from a re-analysis of the deposited data

How the results depend on the processing

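Il36a was left out here after the data were seen, because it had to differ. Counts of called members (53 values), of all called genes (53) and of called list genes (12), the fitted log2 fold changes of the 9 other members (423) and the ratios (110) were recomputed under the alternatives, 651 values in all. Of these 627 were kept, 10 lost the call with the same direction, 7 gained it and 3 turned direction. The last 4 were counts over all tested genes that moved by more than 1.5 times. Kept means the same direction and side of the criterion for fitted values, and within 1.5 times for counts. For ratios it means the same direction alone, so a ratio could shrink and still count as kept. The called members, 8 of 9 for LPS against control, stayed at 8 when each library was left out. Libraries outside a comparison were left out of the fits too. These act on that comparison only through the shared filter, scaling and spread, so such alternatives are a weak check. For dual treatment against control the count of 4 ranged from 4 to 5, and for dual treatment against LPS the count of 6 ranged from 4 to 7, with 4 without dual-treated mouse 5. The cause was not tested. Over all tested genes, leaving out each library gave 6866 to 7595 calls for LPS against control (7279 with all mice), 752 to 1831 for dual treatment against control (1327) and 5231 to 6188 for dual treatment against LPS (6264). Without the fold criterion 12346, 2997 and 10960 genes were called, by the construction of that rule. The turned values were Il1a (-0.23, without dual-treated mouse 2) and Il1rap (-0.10, without dual-treated mouse 5), both for dual treatment against control (ranges over left-out libraries -0.23 to 1.10 and -0.10 to 0.15), and the Il1b to Il1a ratio of dual treatment against LPS (-0.59, without dual-treated mouse 5, where the lone mouse remains). The cause of these was not tested. Across the left-out libraries that ratio difference ranged from -0.59 to 1.52.

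Scaling by library size alone shifted the median of all genes by -0.28 for LPS against control and 0.32 for dual treatment against LPS. Higher calls were then 32.5% of calls in place of 45.6%, and 74.7% in place of 58.5%. No member changed direction under any scaling. With a lone mouse left in a group, that mouse is assumed to vary like the other groups. Without LPS mice 6 and 7, recomputed for the gene lists after seeing the data, all counts of called genes in the 6 lists, without the genes that passed the filter only through 1 group, stayed within 1.5 times. No paired analysis was possible because no pair of groups shares more than 1 mouse number. Depth limits Il36a most, with 0 counts in 5 libraries, which allow up to 3 counts each. Floors cover counting error only.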
